A study of Mus musculus with 568 samples.

Results

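The genes described here are the Hox cluster genes of the mouse: the protein-coding genes whose symbol is Hoxa, Hoxb, Hoxc or Hoxd followed by a number only. The annotation holds 39 of them, 11 in cluster a on chromosome 6, 10 in cluster b on chromosome 11, 9 in cluster c on chromosome 15 and 9 in cluster d on chromosome 2. The bulk values used here held 6 of the 39 among 16335 genes, of which Hoxb9, Hoxc4, Hoxc12, Hoxc13 and Hoxd13 are described below, and the single-cell counts held 30 among 15718 genes. Together they held 31 members. The other 8 (Hoxb2, Hoxb8, Hoxc10, Hoxc11, Hoxd4, Hoxd10, Hoxd11 and Hoxd12) were not analysed here.

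Hox genes encode homeodomain transcription factors that give cells along the body axis their position. Within each cluster the genes lie in the order in which they are switched on in the embryo and of the body level at which they act, and genes at the same place in different clusters form a paralogue group. Anterior genes act in the hindbrain and neck and posterior genes in the trunk, limbs and tail. HOX proteins bind DNA together with TALE homeodomain cofactors of the PBX and MEIS families, retinoic acid and CDX factors switch the clusters on, and Polycomb complexes keep them silent in pluripotent cells. Primordial germ cells arise beside posterior mesoderm in which Hox genes are active, and repression of this somatic programme is a known part of their specification, to which BLIMP1 contributes. Paralogue groups 1 to 3 are called anterior here (8 of the 39 genes), 4 to 8 central (15) and 9 to 13 posterior (16).

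The bulk samples were 4 groups of 4 RNA-seq libraries from 1 female hybrid mouse embryonic stem cell (ESC) line, in which the X chromosome of Mus musculus origin carries a Tsix truncation and a GFP reporter (XGFP) in Hprt and the X of Mus castaneus origin carries a tdTomato reporter in Hprt. All groups share these alleles, rtTA in Rosa26 and doxycycline-inducible transgenes for Prdm14, Prdm1 (BLIMP1) and Tfap2c. The groups were ESCs, epiblast-like cells (EpiLCs), and primordial germ cell-like cells (PGCLCs) sorted on day 5 as SSEA1+ CD61+ and either XGFP+ or XGFP-, after doxycycline induction without added cytokines. The single cells were ESCs and 4 populations sorted from rOvaries. In rOvaries, PGCLCs were aggregated with somatic cells of embryonic female gonads and mesonephros and cultured for 6 days. The populations were XGFP+ constitutive from XGFP+ PGCLCs, and XGFPhigh, XGFPintermediate and XGFPlow, all from XGFP- PGCLCs. The germ cells therefore carry the 3 transgenes in place of the signals that induce them in the embryo, ESCs and EpiLCs were not sorted, and the 4 bulk libraries of a group came from 2 clones with 2 technical replicates each. The labels number them 1 to 4 without naming the clone, so no fit by clone could be made. With n = 4 libraries, the SDs, SEs and p-values below are partly technical and are too small for 2 independent clones. In the bulk data fewer cells with a transcript and less RNA per cell cannot be told apart.

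The bulk libraries held from 29778299 to 46533858 reads recovered from the deposited values. The naive ESC markers fell in EpiLCs (6 of 6 called) and the EpiLC markers rose there (5 of 5). The PGC markers rose from EpiLC to each PGCLC group (7 of 7 each). That list holds Prdm1, Prdm14 and Tfap2c, which the induced transgenes also encode, so the rise of these genes is no check of identity. The rest of the list, Dppa3, Nanos3, Dnd1 and Kit, was called higher as well. Of the single cells, 462 from rOvaries passed the filters (19.05% XGFP+ constitutive, 27.1% XGFPhigh, 27.7% XGFPintermediate and 26.2% XGFPlow, with 6, 19, 16 and 15 wells left out), with a median of 354149 counts per cell in XGFP+ constitutive and of 636623 to 645474.5 in the other 3, and 24 single ESCs with a median of 1103780. No 2 wells had identical counts. The 10 empty wells held 265 counts in all and no Hox count, and so few counts could not show a Hox background. Expression of Dazl, which marks germ cells in the gonad, divided the rOvary cells: 86.4, 94.4, 90.6 and 75.2% of kept cells lay above 1 on the scale ln(counts per 10000 + 1) and 12, 7, 12 and 30 cells at or below it, in the order XGFP+ constitutive, XGFPhigh, XGFPintermediate and XGFPlow. Between 0.5 and 1.5 on that scale lay 8, 13, 1 and 3 cells.

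The promoter letters of 3 members are shown because their genes carry the main differences below: Hoxd13, the member that fell furthest from EpiLC to bulk PGCLC, Hoxb1, which fell in both level and share of cells from XGFP+ constitutive to XGFPlow, and Hoxa5, the leading central gene of the rOvary cells. Each line gives the 250 bases before the RefSeq start of the gene, from 5′ to 3′ on its own strand, build GRCm38.p6, with matches to a searched motif in capitals.
Hoxd13, chr2:74667975-74668224, plus strand: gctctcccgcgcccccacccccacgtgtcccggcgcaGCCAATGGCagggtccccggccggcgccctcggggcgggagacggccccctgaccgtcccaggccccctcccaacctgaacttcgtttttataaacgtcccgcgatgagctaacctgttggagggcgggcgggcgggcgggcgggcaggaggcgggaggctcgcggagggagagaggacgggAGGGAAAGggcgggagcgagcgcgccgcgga
Hoxb1, chr11:96365508-96365757, plus strand: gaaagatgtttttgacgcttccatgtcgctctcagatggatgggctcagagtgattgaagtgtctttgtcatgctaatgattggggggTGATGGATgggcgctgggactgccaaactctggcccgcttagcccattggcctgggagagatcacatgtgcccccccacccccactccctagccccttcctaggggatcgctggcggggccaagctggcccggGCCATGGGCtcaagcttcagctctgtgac
Hoxa5, chr6:52204588-52204837, minus strand: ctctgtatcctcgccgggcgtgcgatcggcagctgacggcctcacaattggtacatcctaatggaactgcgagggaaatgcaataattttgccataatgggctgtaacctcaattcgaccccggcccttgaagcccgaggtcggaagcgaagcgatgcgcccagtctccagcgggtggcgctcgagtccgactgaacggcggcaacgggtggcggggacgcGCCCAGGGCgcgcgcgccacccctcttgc

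The capitals mark AP-2 motifs (GCCNNNGGC, the motif of the TFAP2C family) in all 3 windows, at -213 in Hoxd13, -29 in Hoxb1 and -29 in Hoxa5, a PRDM1 motif (AGNGAAAG) at -31 in Hoxd13 and a PBX-HOX motif (TGATNNAT) at -162 in Hoxb1. The Hoxd13 window overlapped no annotated gene. The last 6 bases of the Hoxb1 window lay in an annotated exon of Hoxb1, in its UTR, and the Hoxa5 window lay outside exons, within the longer annotated genes Hoxa3 and Gm28308 and, on the other strand, Hoxaas3. RefSeq promoters were matched for 22 of the 39 members. Of these, 5 held the AP-2 motif on either strand (22.7%, against 13.7% of all 32841 promoters of the same length), 3 the PBX-HOX motif (13.6% against 7.69%), 2 the PRDM1 motif (9.09% against 7.30%) and 6 the retinoic acid receptor core motif AGGTCA (27.3% against 14.03%). Their median GC content was 56.8%, against 52.4% over all promoters. These matches describe letters and no binding was measured.

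In bulk, transcripts of the 6 members measured were scarce throughout, and their sum was highest in ESCs. Summed over the 6 members, the level was 466 ± 29.4 normalized counts in ESCs, 156 ± 35.2 in EpiLCs, 74.5 ± 11.7 in XGFP+ PGCLCs and 23.4 ± 9.79 in XGFP- PGCLCs (mean ± SD, n = 4 each, as for all bulk means below). Hoxc12 and Hoxc4, which were retained through ESCs alone, made 52.5 and 44.7 of the ESC sum. Part of its height therefore follows from how the members were retained. No member was called higher in any of the 6 comparisons between groups by limma, edgeR or DESeq2. At an unadjusted p under 0.05 the limma fit put 1 higher, Hoxc4 from EpiLC to XGFP+ PGCLC, and edgeR and DESeq2 put 2, Hoxc4 and Hoxc13 in the same comparison. Of all genes, 24.9% were called higher from ESC to EpiLC, 27.8 and 29.9% from EpiLC to XGFP+ and XGFP- PGCLC, 11.3% from XGFP+ to XGFP- PGCLC, and 25 and 29.8% from ESC to XGFP+ and XGFP- PGCLC. A gene was called at a false discovery rate below 0.001 in the limma-trend fit of log2(normalized count + 1) to all 16 libraries. The fit tested 16281 genes with a mean above 10, and Hoxc12 and Hoxc4 passed that filter only through the ESCs: without them their means were 0.306 and 2.18.

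On the mm10 build, Hoxb9 lies on chromosome 11 (96271457 to 96276595, plus strand) and Hoxd13 on chromosome 2 (74668310 to 74671599, plus strand). The 3 members of cluster c lie on the plus strand of chromosome 15, Hoxc13 at 102921103 to 102928814, Hoxc12 at 102936757 to 102938609 and Hoxc4 at 103018934 to 103036852. Hoxc13 and Hoxc12 are neighbours at the posterior end and Hoxc4 is the last gene at the other.

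**Figure D1:**
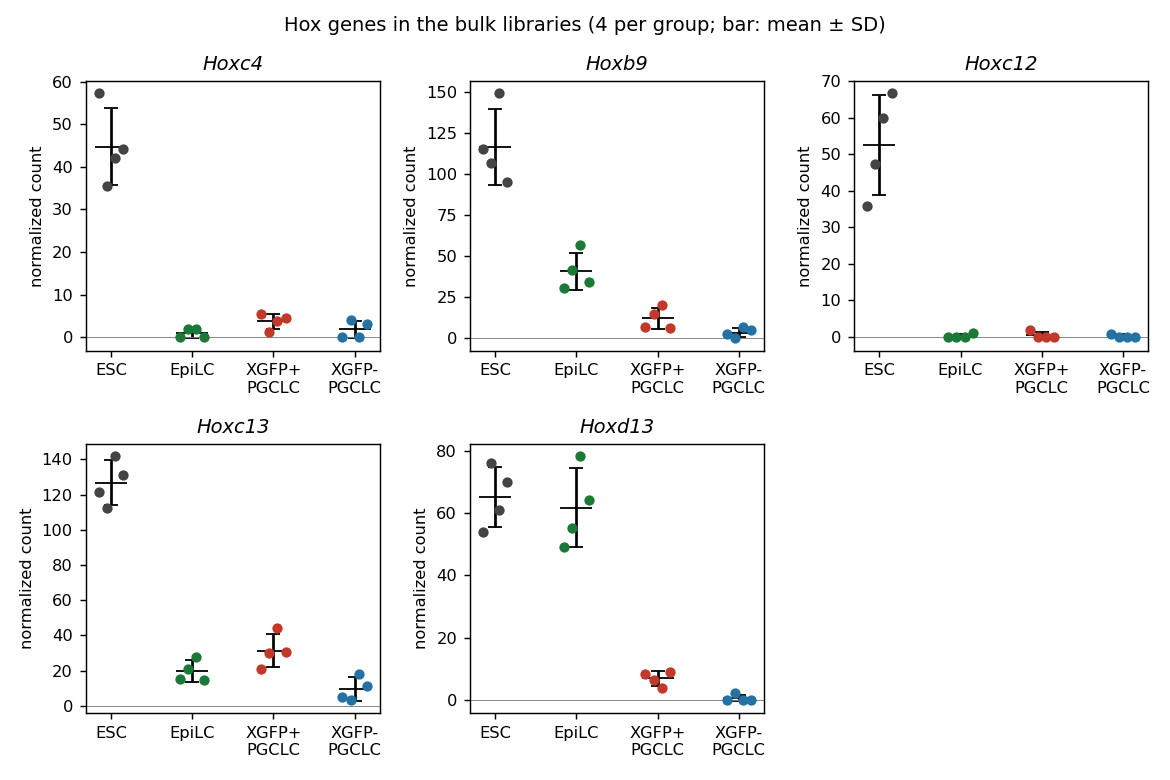
Normalized counts of 5 Hox genes (y axis) in each of 4 libraries per group (points), with the mean and SD (bars). Hoxc12 and Hoxc4 stood at 35.6 or more in every ESC library and at 5.44 or less elsewhere, while Hoxd13 kept its ESC level in EpiLCs and lay at 8.96 or less in the PGCLC libraries.

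The posterior genes, 4 of the 6 members measured, held 77.5 ± 4.77% of the summed normalized count in ESCs, 78.5 ± 5.44% in EpiLCs, 68.8 ± 15.3% in XGFP+ PGCLCs and 55.3 ± 16.3% in XGFP- PGCLCs. The XGFP- PGCLC shares rest on sums of 23.4 normalized counts, and their libraries were at 43.5, 45.5, 78.8 and 53.3% posterior, so that the mean was 47.4% without replicate 3. Per kilobase of exon, the highest levels in ESCs were 51.5 ± 5.14 normalized counts per kb for Hoxc13, 50.9 ± 13.2 for Hoxc12 and 45.3 ± 9.07 for Hoxb9, which differed by less than the spread between libraries. Hoxd13 at 26.3 ± 3.95 and Hoxc4 at 17.4 ± 3.54 per kb were lower.

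From ESC to EpiLC, the 3 genes of cluster c fell and the others were not called. The question of this step is what changes when naive cells enter the formative state from which germ cells are induced. Of the 6 members, 3 were called lower and none higher, beside 22.9% of all genes called lower and 12.5% of genes with a mean of 10 to 50 normalized counts. Hoxc12 and Hoxc4 passed the filter through ESCs alone, so their fall follows from how they were retained and the count is not read against these shares. Of the other 4 members 1 was called lower, Hoxc13.

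Hoxc12, a posterior gene between Hoxc13 and the rest of its cluster, was at 35.9, 47.4, 59.9 and 66.7 normalized counts in the ESC libraries and at 0 in 3 EpiLC libraries and 0.987 in the other. In reads this was 196 against 1, a fold of 225 with a counting interval from 39.9 to 8936. It was detected in every ESC library and barely in EpiLCs, with a log2 change of -5.46 ± 0.44 (SE; adjusted p = 2.8e-09). Hoxc4, a central gene of the neck region, was at 57.2, 35.6, 42.1 and 44.1 in ESCs and at 0, 1.98, 1.99 and 0 in EpiLCs. The groups lay far apart and the log2 change was -4.71 ± 0.57 (adjusted p = 6.28e-07).

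Hoxc13, the most posterior gene of the cluster and a regulator of hair keratins, was at 121.2, 112.6, 141.95 and 131.2 normalized counts in ESCs and at 15.0, 20.8, 27.8 and 14.8 in EpiLCs. It fell by 2.67 ± 0.37 on the log2 scale (adjusted p = 4.38e-06) and, unlike Hoxc12 beside it, remained measurable at 83 reads over the EpiLC libraries. Hoxb9, a trunk gene, was at 115.6, 106.7, 149.3 and 95.02 in ESCs and at 30.9, 41.5, 56.6 and 34.6 in EpiLCs. These ranges did not overlap, but the log2 difference of -1.51 ± 0.49 was not called (adjusted p = 0.0112). The call for Hoxb9 was made by edgeR and by DESeq2 on the recovered reads, with a pseudocount of 10, with EpiLCs and ESCs fitted alone, and without XGFP- PGCLC replicate 2, which each gave 4 called members.

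Hoxd13, which shapes digits and the genital tubercle, showed no detectable difference between the stages. It was at 53.9, 76.1, 60.99 and 70.1 normalized counts in ESCs and at 49.1, 55.4, 78.5 and 64.2 in EpiLCs. The ranges overlapped almost wholly, and the log2 difference was -0.09 ± 0.35 (adjusted p = 0.84). The read ratio of ESC to EpiLC was 1.07 with a counting interval from 0.899 to 1.28. Over all genes, 29.5% had EpiLC libraries lying wholly below the ESC libraries, as 5 of the 6 members did, Hoxc12 and Hoxc4 among them.

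From EpiLC to PGCLC, Hoxd13 fell in both PGCLC groups, and Hoxb9 was called lower in XGFP- PGCLCs. This step asks what the induction of germ cell fate does to the genes, and the 2 comparisons share their EpiLC libraries. In XGFP+ PGCLCs 1 of 6 members was called lower (29.5% of all genes and 23.9% of genes with a mean of 10 to 50). In XGFP- PGCLCs 3 of 6 were called lower (31.9% and 28.8%). Hoxc12 and Hoxc4 held only 1 and 4 reads over the EpiLC libraries and could hardly be called lower from there. Neither count is therefore read against these shares. The count in XGFP- PGCLCs was 2 without EpiLC replicate 1, without EpiLC replicate 3 and after quantile normalization.

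Hoxd13 was at 8.16, 6.26, 3.83 and 8.96 normalized counts in XGFP+ PGCLCs and at 0, 2.03, 0 and 0 in XGFP- PGCLCs. Every PGCLC library lay below every EpiLC library. The log2 change from EpiLC was -3.04 ± 0.35 in XGFP+ PGCLCs (adjusted p = 2.59e-07) and -5.55 ± 0.35 in XGFP- PGCLCs (adjusted p = 4.67e-11). In reads, EpiLC held 262, XGFP+ PGCLCs 28 and XGFP- PGCLCs 2, so that EpiLC exceeded XGFP+ PGCLCs by a fold of 8.86 (counting interval 5.99 to 13.6) and XGFP- PGCLCs by 126.6 (34.7 to 1051). This fall was called under each of the 25 alternative fits that tested it. Over all genes, 36.1% had XGFP+ libraries and 38% had XGFP- libraries lying wholly below the EpiLC libraries.

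Hoxb9 was at 7.25, 15.0, 20.1 and 6.27 in XGFP+ PGCLCs and at 2.60, 0, 6.73 and 5.15 in XGFP- PGCLCs. All 8 libraries lay below the lowest EpiLC library at 30.9. The log2 difference from EpiLC was -1.77 ± 0.49 for XGFP+ PGCLCs, which was not called (adjusted p = 0.00316), and -3.50 ± 0.49 for XGFP- PGCLCs, which was (adjusted p = 2.96e-06). The former was called with a pseudocount of 10, by edgeR, by DESeq2, with the pair of groups fitted alone, and without XGFP- PGCLC replicate 2, which raised the count for XGFP+ PGCLCs from 1 to 2.

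Hoxc13 and Hoxc4 did not continue downward at this step in XGFP+ PGCLCs. Hoxc13 was at 20.9, 30.04, 44.03 and 30.5 normalized counts there and at 5.20, 3.05, 18.3 and 11.3 in XGFP- PGCLCs, and both groups overlapped EpiLCs. The log2 differences from EpiLC were 0.65 ± 0.37 (adjusted p = 0.124) and -1.18 ± 0.37 (adjusted p = 0.00772), neither called, and without XGFP- PGCLC replicate 3 the latter was called, for a count of 4. Hoxc4 was at 5.44, 1.25, 3.83 and 4.48 in XGFP+ PGCLCs and at 0, 4.06, 0 and 3.09 in XGFP- PGCLCs. With 16, 7 and 4 reads in XGFP+ PGCLCs, XGFP- PGCLCs and EpiLCs, differences between these groups were not called and would have to be large to be detectable at this depth. Hoxc12 had 2 reads in XGFP+ and 1 in XGFP- PGCLCs, and no fold is given.

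**Figure D2:**
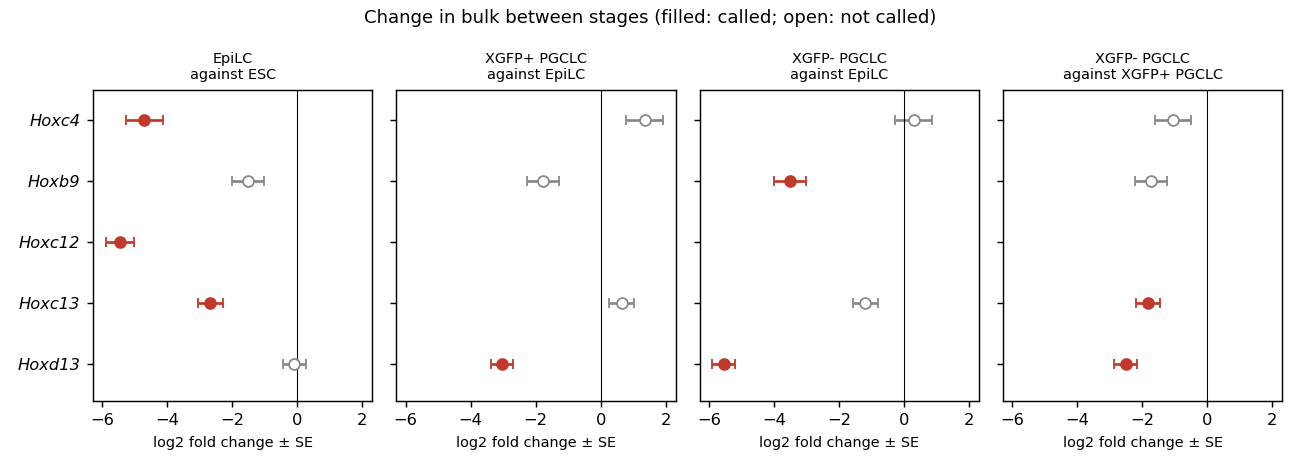
Log2 fold change with its standard error (x axis) for 5 Hox genes in 4 comparisons; filled points were called at a false discovery rate below 0.001 and open points were not, and Hoxc12 is left out where both groups held 3 reads or fewer. The called points all lie left of 0, from -1.83 for Hoxc13 between the PGCLC groups to -5.55 for Hoxd13 from EpiLC to XGFP- PGCLC.

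Between the PGCLC groups, Hoxd13 and Hoxc13 were lower in XGFP- PGCLCs, the cells with a silent XGFP reporter. This compares cells that inactivated the musculus X with cells in which both X chromosomes stayed active. Both called members lie at the posterior end of their cluster, but 4 of the 6 members measured are posterior. Of the 6, 2 were called lower, against 12.5% of all genes and 9.52% of genes with a mean of 10 to 50. Hoxc12, with 2 reads in XGFP+ and 1 in XGFP- PGCLCs, could not be called. Hoxd13 differed by -2.51 ± 0.35 on the log2 scale (adjusted p = 1.12e-05) and the XGFP+ libraries held 28 reads against 2, a fold of 14.3 with a counting interval from 3.604 to 123.8. Hoxc13 differed by -1.83 ± 0.37 (adjusted p = 0.000551), from 31.3 ± 9.55 to 9.46 ± 6.84 normalized counts. The 2 groups did not overlap for either gene, as for 21.7% of all genes in this direction.

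These are small values and the calls depended on the fit. With the replicate number as a block the same 2 members were called, and with the pair of groups fitted alone by limma without the block 0 were, with 4 at an unadjusted p under 0.05 (1 member at a pseudocount of 10, Hoxc13, and 1 after quantile normalization, Hoxd13; edgeR and DESeq2 called both). The call for Hoxc13 was lost, leaving 1 member, without XGFP+ PGCLC replicate 2, 3 or 4 and without XGFP- PGCLC replicate 1 or 2. Hoxb9 differed by -1.72 ± 0.49 (adjusted p = 0.00728) and Hoxc4 by -1.05 ± 0.57 (adjusted p = 0.135), and neither was called under any of the 25 alternatives. Some marker lists were also lower in XGFP- PGCLCs and others were not. Of the naive ESC markers 4 of 6 were called lower and none higher (median log2 difference -0.83), of the later germ cell markers 5 of 5 tested (median -2.07), and of the primitive streak and mesoderm markers 2 of 5 tested (median -0.79), against a median of 0.01 over all genes. Of the PGC markers 2 of 7 were called higher and 1 lower (median 0.33). Of the pregranulosa and supporting cell markers 2 of 6 tested were higher and 1 lower (median 0.99). Of the endothelium markers 1 of 4 tested was higher and 0 lower (median 0.57). The part of these lists in the result was not tested.

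Over the whole path from ESC, every member measured ended lower. In XGFP+ PGCLCs 5 of 6 members were called lower than in ESCs (24.9% of all genes, 15.8% of those with a mean of 10 to 50) and in XGFP- PGCLCs 6 of 6 (29.6% and 23.9%). Both counts hold Hoxc12 and Hoxc4, which were retained through ESCs alone and had to fall, so neither is read against the background. Of the other 4 members 3 were called lower in XGFP+ PGCLCs and 4 in XGFP- PGCLCs. Among Hoxb9, Hoxd13 and the genes of cluster c, the log2 changes to XGFP- PGCLCs ranged from -3.86 ± 0.37 for Hoxc13 to -5.64 ± 0.35 for Hoxd13, and those to XGFP+ PGCLCs from -2.02 ± 0.37 for Hoxc13 to -5.33 ± 0.44 for Hoxc12. The count in XGFP+ PGCLCs was 6 with a pseudocount of 10, by DESeq2, under the replicate block, without XGFP+ PGCLC replicate 1 and without XGFP- PGCLC replicate 2.

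Of the 9 TALE cofactors tested, 3 were higher and 2 lower in EpiLCs than in ESCs, 3 higher and 3 lower in XGFP+ PGCLCs than in EpiLCs, 4 higher and 2 lower in XGFP- PGCLCs than in EpiLCs, and 3 higher and none lower in XGFP- than in XGFP+ PGCLCs. Of all genes, 24.9% were called higher and 22.9% lower in EpiLCs than in ESCs, and 27.8 and 29.5% in XGFP+ PGCLCs than in EpiLCs. In XGFP- PGCLCs 29.9% were higher and 31.9% lower than in EpiLCs, and 11.3 and 12.5% than in XGFP+ PGCLCs. The same shares stand beside the counts of the Polycomb, trithorax, upstream and flanking lists below. Meis2, a partner of HOX proteins, fell by 2.38 ± 0.24 into EpiLCs and rose by 2.64 ± 0.24 into XGFP+ and 2.32 ± 0.24 into XGFP- PGCLCs.

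Among 18 Polycomb genes, 6 were higher and 7 lower in EpiLCs than in ESCs, 8 higher and 1 lower in XGFP+ PGCLCs and 8 higher and 3 lower in XGFP- PGCLCs than in EpiLCs. Ezh1 and Ring1, which encode a histone H3 lysine 27 methyltransferase and a histone H2A ubiquitin ligase, rose by 1.62 ± 0.06 and 0.74 ± 0.10 in XGFP+ PGCLCs and by 1.44 ± 0.06 and 1.59 ± 0.10 in XGFP- PGCLCs. Suz12, a core subunit of the methyltransferase complex, rose by 1.27 ± 0.09 and 1.12 ± 0.09. Between the PGCLC groups 2 were higher and 1 lower in XGFP- PGCLCs. Of 8 trithorax genes and H3K27 demethylases, which counter Polycomb, 4 were higher and 1 lower in XGFP+ PGCLCs and 3 higher and 1 lower in XGFP- PGCLCs than in EpiLCs. Kmt2a, the methyltransferase that maintains active Hox genes, rose by 1.15 ± 0.12 in XGFP+ and 0.86 ± 0.12 in XGFP- PGCLCs.

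The signals upstream of the clusters mostly rose into EpiLCs and mostly fell again into PGCLCs. None of the 6 Hox members measured was called higher in EpiLCs, and the 33 not in the bulk values could not be assessed. Of 18 upstream genes tested, 10 were higher and 2 lower in EpiLCs than in ESCs, and 12 were lower and 2 higher in XGFP+ PGCLCs, and 11 lower and 4 higher in XGFP- PGCLCs, than in EpiLCs. Fgf8, a signal of the primitive streak, rose from 2.45 ± 2.18 to 514 ± 161 normalized counts in EpiLCs, and Wnt3 from 39.5 ± 14.1 to 1330.2 ± 395. Cdx1, a homeodomain factor that activates Hox genes, went the other way, from 191 ± 44.9 in ESCs to 6.24 ± 1.00 in EpiLCs, and stood at 13.5 ± 3.15 in XGFP+ PGCLCs and at 18.3 ± 3.23 in XGFP- PGCLCs. Rarb, a retinoic acid receptor and target, was highest in XGFP- PGCLCs at 64.6 ± 8.63, above the 12.2 ± 4.22 of XGFP+ PGCLCs (log2 difference 2.38 ± 0.33, adjusted p = 1.09e-05).

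Of 13 non-coding RNAs of the clusters, 2 were measured. Halr1, of cluster a, was at 31.7 ± 10.8 normalized counts in XGFP+ and 1.42 ± 1.15 in XGFP- PGCLCs, and fell by 3.84 ± 0.49 between them (adjusted p = 4.29e-06). Hotairm1, also of cluster a, was at 19.7 ± 3.43 in ESCs, 19.96 ± 7.28 in EpiLCs and 3.86 ± 0.75 in XGFP- PGCLCs, and fell by 2.05 ± 0.28 from EpiLC to XGFP- PGCLC (adjusted p = 2.47e-06). The strand setting of the counting is not given in the sources used here, so reads of an antisense RNA and of a coding gene it overlaps cannot be told apart. Among 13 genes that flank the clusters, 2 were higher and 5 lower in EpiLCs than in ESCs, 5 higher and 5 lower in XGFP+ PGCLCs and 6 higher and 3 lower in XGFP- PGCLCs than in EpiLCs, and 1 was lower between the PGCLC groups. Evx1, next to the posterior end of cluster a, rose from 11.4 ± 9.56 in ESCs to 86.96 ± 53.96 in EpiLCs (adjusted p = 6.85e-05), the stage at which the members of cluster c fell.

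In the rOvary, cells of all 4 populations held Hox transcripts, and anterior genes held most of the counts in all but XGFPlow. The kept rOvary cells held 38614 Hox counts, and 29, 29, 27 and 30 of the 30 members had at least 1 count in XGFP+ constitutive, XGFPhigh, XGFPintermediate and XGFPlow cells. Each population is 1 sample, since the labels name no culture or animal below it, so no test between populations was made, and the intervals here cover counting error only (reads carry no molecular identifiers). Summed over members, the level was 98.4 CPM (counts per 1000000 counts of the population; 95% exact Poisson interval 94.98 to 101.9), 100.9 (98.7 to 103.05), 81.2 (79.3 to 83.2) and 254 (250.4 to 257) in that order, and 5.15 (4.32 to 6.10) in single ESCs. XGFPlow had the highest sum. The single ESCs were all sequenced in lane 4, which held no rOvary cell. In comparisons with single ESCs, lane and cell type therefore cannot be told apart. At least 1 Hox count was present in 93.2, 91.2, 75.8 and 80.99% of cells and in 66.7% of single ESCs, and after each cell was thinned to 200000 counts in 93.98, 84.7, 71.7, 76.9 and 39.1% (5, 1, 1, 4 and 1 shallower cells left out). The median kept cell held counts of 3, 3, 2 and 2 Hox genes.

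The summed Hox level was highest in XGFPlow cells with little or no Dazl, although the single richest cell, an XGFPlow cell at 3212 CPM, had Dazl above 1. Among cells with Dazl above 1, the sum was 100.3 CPM in XGFP+ constitutive, 99.6 in XGFPhigh, 69.7 in XGFPintermediate and 128.4 in XGFPlow, and that cell held 33.6% of the XGFPlow counts: without it XGFPlow stood at 86.4. Among cells at or below 1, the sums were 84.8, 122.5, 182 and 672. Of the 20 cells with the highest summed Hox level, 15 were XGFPlow and 13 of these had Dazl at or below 1. The 30 XGFPlow cells at or below 1, of which 22 had no Dazl count, ranged from 0 to 2862 CPM with a median of 349, against a median of 34.8 in the 91 others.

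**Figure D3:**
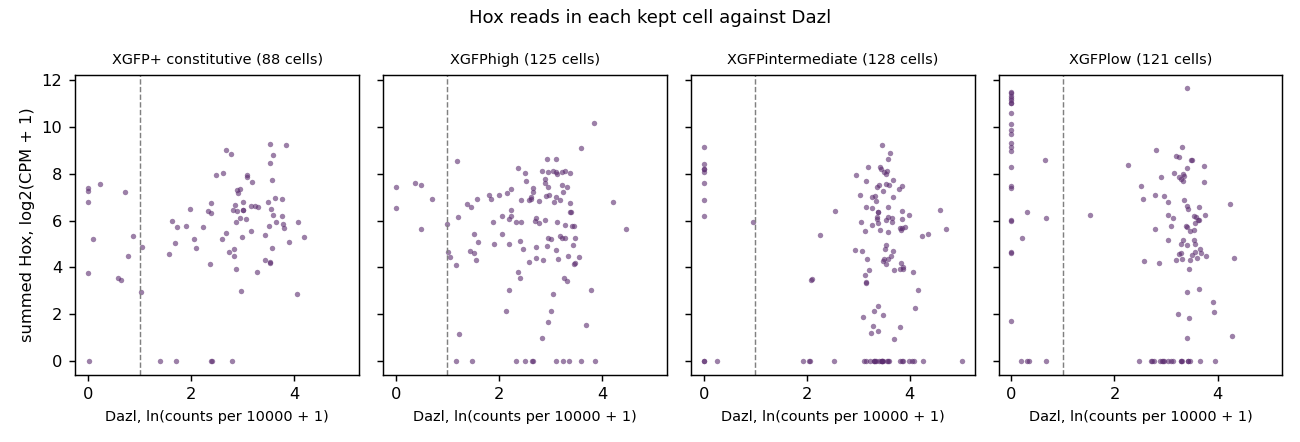
Summed Hox level of each kept cell on the scale log2(CPM + 1) (y axis) against Dazl as ln(counts per 10000 + 1) (x axis), with 1 point per cell and a dashed line at 1. In XGFPlow a column of cells at or below 1 reaches 2862 CPM, while in the other populations the cells on that side of the line stay at or below 565 CPM.

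In XGFPlow, the neural, stroma and supporting cell lists were higher at or below 1 for Dazl, and the endothelium and blood lists were lower. In XGFPlow cells at or below 1 for Dazl, the summed neural list (5 of 7 genes measured) was 774 CPM, of which Tubb3 made 703, and Zic1, at 0 in every other population and in the XGFPlow cells above 1, was 34.02. The gonadal stroma and mesonephros list was 211 CPM with Lhx9 at 0, the supporting cell list 211 with none at 0, the endothelium list 6.01 with Cdh5, Emcn and Kdr at 0, and the blood list 0. In XGFPlow cells above 1 the same lists stood at 40.8, 7.36, 11.4, 9.42 and 0.633 CPM, and the later germ cell list at 6674 against 490. The XGFPintermediate cells at or below 1 differed from these, with 2837 CPM of the stroma list, 683 of endothelium and 325 of blood. The part of these cells in the Hox difference was not tested beyond the values given for each side of the Dazl line.

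Hoxb1, which patterns the hindbrain segment of the facial nerve, ordered the populations the same way by level and by share of cells over all kept cells. Its level was 37.5 CPM in XGFP+ constitutive (interval 35.4 to 39.7), 28.2 in XGFPhigh (27.04 to 29.3), 20.4 in XGFPintermediate (19.4 to 21.4) and 12.7 in XGFPlow (11.9 to 13.5), and 0 counts were found in single ESCs, which allows 0.115 CPM. A count was present in 46.6% (exact binomial interval 35.9 to 57.5), 40.8% (32.1 to 49.9), 23.4% (16.4 to 31.7) and 19.8% (13.1 to 28.1) of cells and in 0 of 24 ESCs. The first pair and the last pair of shares differ from each other by less than their intervals. With each cell thinned to 200000 counts the shares were 46.99, 37.9, 23.6 and 19.7%, and in cells with Dazl above 1 the levels kept their order at 42.3, 28.8, 22.7 and 15.4 CPM. In sequencing lane 2 alone, which holds all XGFP+ constitutive cells and 14 to 16 of each other population, the shares were 46.6, 28.6, 25 and 20%, but XGFPhigh led by level there, at 43.6 CPM against 37.5, 27.1 and 3.78 in XGFP+ constitutive, XGFPintermediate and XGFPlow, with 70.3% of its counts from 1 cell.

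**Figure D4:**
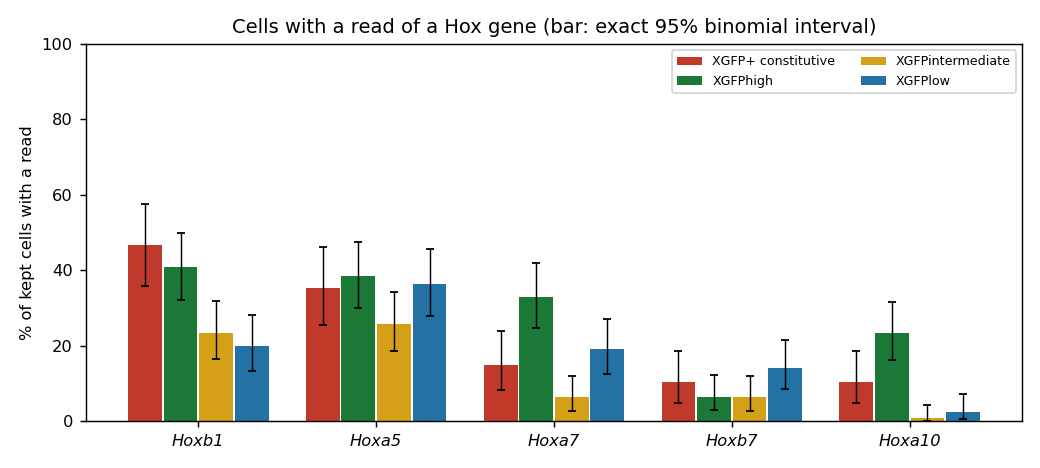
Share of kept cells with at least 1 count (y axis, percent) of 5 Hox genes in the 4 rOvary populations, with exact 95% binomial intervals. Hoxb1 reaches 46.6 and 40.8% in XGFP+ constitutive and XGFPhigh cells against 23.4 and 19.8% in the others, and Hoxa10 reaches 23.2% in XGFPhigh against 0.781% in XGFPintermediate.

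Hoxa5, a central gene of the lung, neck and thorax, was the central gene with the most counts and rose in level, though not in share of cells, towards XGFPlow. It was at 5.53, 7.13, 10.5 and 50.2 CPM, in 35.2, 38.4, 25.8 and 36.4% of cells. In XGFPlow, 1 cell gave 36.9% of its counts, without which the level was 32.04 CPM. In cells with Dazl above 1 the level was 5.55, 6.40, 8.14 and 37.0 CPM, and 13.1 in XGFPlow without its top cell. The gene lies within the longer annotated Hoxa3 on the same strand, which stood at 1.05, 1.19, 3.70 and 5.45 CPM, and how shared reads were assigned is not given in the sources used here.

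The trunk genes Hoxb7 and Hoxb9 and their neighbour Hoxb6 were carried by few cells. Hoxb7 was at 1.30, 2.01, 3.18 and 30.3 CPM and Hoxb9 at 0.922, 1.49, 0.189 and 31.5 CPM. In XGFPlow these counts came from 14.05 and 10.7% of cells, and in its cells with Dazl above 1 the levels were 2.03 and 1.77 CPM against 124.5 and 130.7 in those at or below 1. Hoxb6 was at 3.44, 5.73, 0.0237 and 11.98 CPM, and the XGFPhigh value came from 1 cell of 125. Hoxb5, a central gene, was at 1.91, 0.883, 4.60 and 11.9 CPM, in 5.68, 2.40, 11.7 and 16.5% of cells.

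The leading 10 members by counts also included Hoxa7, Hoxa2 and Hoxa4. Hoxa7, a trunk gene, was at 2.19, 7.77, 3.01 and 10.4 CPM and present in 14.8, 32.8, 6.25 and 19.01% of cells. In cells with Dazl above 1 it was highest in XGFPhigh, at 7.96 CPM against 2.03, 1.19 and 2.14 in XGFP+ constitutive, XGFPintermediate and XGFPlow. Hoxa2, which patterns the neural crest of the second arch, was at 2.13, 2.42, 2.86 and 11.8 CPM, and Hoxa4 at 2.54, 2.78, 2.45 and 9.79 CPM. The leading 10 members held 83.05% of all Hox counts, and the other 20 held at most 6.66 CPM each in any population.

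The next 4 members were chosen after their values were seen. Hoxa10 and Hoxa11, posterior genes of the uterus and kidney, were found mainly in the XGFP+ constitutive and XGFPhigh populations. Hoxa10 was present in 10.2, 23.2, 0.781 and 2.48% of cells (2.19, 3.87, 1.14 and 0.562 CPM) and in cells with Dazl above 1 it had 35, 257, 0 and 0 counts. The shares of 0 in XGFPintermediate and XGFPlow have upper binomial limits of 3.13 and 3.97%. In lane 3 alone its share was 25.2% in XGFPhigh, 0.893% in XGFPintermediate and 2.83% in XGFPlow. In lane 2 it was 7.14% of 14 XGFPhigh cells and 0 of 16 and 15 cells of the others. Hoxa11 was present in 6.82, 10.4, 0 and 0.826% of cells.

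Of cluster d, Hoxd3 and Hoxd8 each had most of their counts in 1 population. Hoxd3, an anterior gene, had 261 counts in 9 of the 30 XGFPlow cells at or below 1 for Dazl and none in any other kept cell. Hoxd8 was highest in XGFPintermediate, at 4.91 CPM in 20.3% of cells against 1.34, 1.98 and 0.937 CPM in 10.2, 7.20 and 7.44% elsewhere. Hoxc13 and Hoxd13, the members that separated the bulk PGCLC groups, had at most 0.787 and 0.362 CPM in any rOvary population, and their share of cells was 3.41, 7.20, 1.56 and 3.31%, and 2.27, 2.40, 0.781 and 1.65%.

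**Figure D5:**
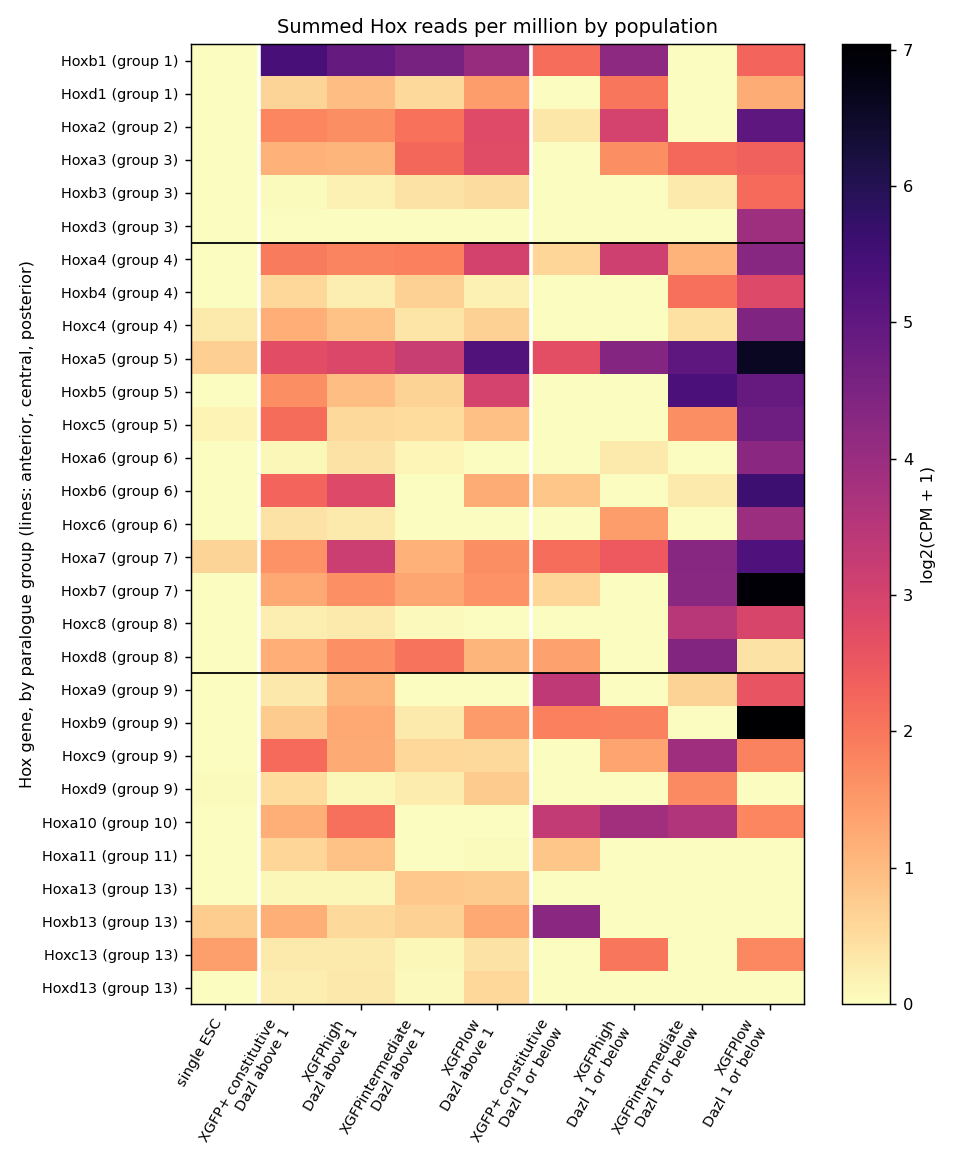
Summed level of each of 29 Hox genes as log2(CPM + 1) (colour) in single ESCs and in the 4 rOvary populations divided by Dazl; genes (rows) are ordered by paralogue group and black lines divide anterior, central and posterior genes. Hoxb1 is dark in the 4 columns above 1 for Dazl, and the last column, XGFPlow at or below 1, is darkest for Hoxb9, Hoxb7 and Hoxa5, with Hoxb7 at 124.5 and Hoxb9 at 130.7 CPM.

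By position along the clusters, anterior genes held most of the counts in 3 of the 4 populations. Over all kept cells the anterior share was 63.8% (exact binomial interval 62.1 to 65.5) in XGFP+ constitutive, 60.03% (58.97 to 61.1) in XGFPhigh, 54.9% (53.7 to 56.1) in XGFPintermediate and 26.95% (26.3 to 27.6) in XGFPlow. In cells with Dazl above 1 it was 66.8, 60.3, 70.02 and 49.3%, and the posterior share was 8.42, 9.17, 3.35 and 4.55%. XGFPlow cells at or below 1 were 12.7% anterior, 66.02% central and 21.3% posterior, and XGFPintermediate cells at or below 1 were 4.42% anterior, 80.4% central and 15.2% posterior. Single ESCs held few Hox counts, 24.6% (17.6 to 32.8) anterior and 46.3% posterior.

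By cluster, a and b held most of the counts in each population. Cluster a held 39.9, 54.6, 50.99 and 49.8% of the Hox counts and cluster b 49.6, 38.7, 37.1 and 40.2%, while c held 8.08, 3.48, 4.82 and 7.29% and d 2.39, 3.30, 7.09 and 2.65%. The members of b, c and d in the table are 8 of 10, 6 of 9 and 5 of 9, so the shares of these clusters leave out genes that were not measured. In XGFPlow cells at or below 1 for Dazl, b exceeded a, at 344 against 239 CPM.

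Against XGFPhigh, the number of members at least 2-fold apart is given beside the same share over all genes. Each gene had 100 counts or more in the pair of populations. A member that passes through its high population had to differ, as did Hoxd3 in XGFPlow with 261 counts against 0. The numbers of members are therefore not read against the shares. In XGFPlow 17 of 25 members were higher and 3 lower, against 21.3 and 7.31% of all genes. In cells with Dazl above 1 these were 6 higher and 4 lower of 17, against 13.7 and 10.3%. In XGFPintermediate 4 were higher and 5 lower of 16 (20.6 and 8.41% of all genes), and with Dazl above 1, 1 higher and 6 lower of 15 (16.4 and 9.92%). XGFP+ constitutive differed from XGFPhigh in 4 higher and 2 lower of 19 (4.64 and 4.79%), and with Dazl above 1 in 3 higher and 3 lower of 16 (2.8 and 5.0%). Hoxb6 was among the lower members in XGFPintermediate through a single XGFPhigh cell, which held its counts there. In XGFPlow with Dazl above 1, the richest cell held 33.6% of the Hox counts. The numbers of members were not taken again without such cells. Without a replicate these numbers describe these populations only.

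The cofactors, regulators and neighbours were measured in the same cells. In cells with Dazl above 1 the 9 TALE cofactors summed to 166, 156, 205 and 160 CPM, against 45.1 in single ESCs, and in XGFPlow cells at or below 1 to 482. The 18 Polycomb genes summed to 1721, 1487, 1289.7 and 1331 CPM, and 1268 in single ESCs. The 22 upstream genes summed to 342, 252, 422 and 655 CPM, and 64.9 in single ESCs. Among them, chosen after their values were seen, Cyp26a1, which degrades retinoic acid, was at 67.98, 24.6, 167 and 310 CPM and Rarb at 18.02, 15.3, 36.2 and 59.3 CPM, both at 0 in single ESCs. The 13 measured flanking genes summed to between 1483 and 1806 CPM in these cells and to 1845 in single ESCs. Such a sum is set by its most abundant genes and does not show whether each neighbour of the clusters changed.

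Single ESCs and bulk ESCs gave different accounts of some members. Hoxc13 was found in 9 of 24 single ESCs at 1.69 CPM (interval 1.23 to 2.27), against 3.30 CPM in the recovered reads of the bulk ESCs (3.01 to 3.62). Hoxb9, at 3.05 CPM in bulk, and Hoxd13, at 1.71, had no count in 24 single ESCs, where 3 counts would have been 0.115 CPM. Hoxc4 was at 0.231 against 1.16. The bulk libraries were made from total RNA and the single cells by full-length amplification from poly-A, the gene models differ, and the part of these in the differences was not tested.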

How the data were processed

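Bulk RNA was sequenced from 4 groups of 4 libraries (stranded total RNA) and single cells from 552 wells by a full-length method that starts from poly-A. The authors aligned reads with STAR to mm10 masked at the SNPs of the parental strains, filtered them with WASP and counted them per gene with HTSeq 0.6.1. The deposited bulk values are a signal, counts divided by a DESeq2 1.16 size factor, and the deposited single-cell values are raw counts per gene (Ensembl 67). The strand setting is not given in the sources used here. The bulk table's lowest gene mean was 9.59, so genes below about that level, 33 members among them, were not analysed here. Dividing each value by its library's smallest step gave whole reads (100.0% within 0.1 of a whole number) and depths of 29778299 to 46533858 reads.

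Bulk values were tested with limma 3.58.1 (trend) on log2(value + 1) for 16281 genes with a mean above 10, all 16 libraries in 1 model, with Benjamini-Hochberg adjustment over all genes, and a fold change on this scale understates the change of low genes. Alternatives were edgeR 4.0.16 (quasi-likelihood, TMM) and DESeq2 1.42.0 on the recovered reads, other pseudocounts and filters, quantile normalization, 2 groups alone, a replicate block and each library left out. On the reads, edgeR called 1850 genes higher and 2124 lower from XGFP+ to XGFP- PGCLC, against 1833 and 2040 by limma. The fits were also run on simulated counts of independent libraries. That does not test them for technical replicates of the same clone or for genes with almost no reads. Ratios of reads carry exact 95% intervals for counting error only. Replicates of a group differed by more than sampling noise.

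Cells with at least 4000 genes and 10000 counts and at most 5% mitochondrial counts were kept. Counts were summed per population, with exact Poisson and binomial intervals, and no test was made. No doublet caller was run, since each well was sorted to hold 1 cell. Marker and pathway lists, the members and the division at Dazl were chosen with earlier results of these data known. Values per library are given for members called in a comparison, the 10 members with most counts are given per population, and up to 3 called genes per pathway list and comparison were named. The values of 1 member and of 1 cofactor are not reported here, and counts and sums over members or lists include them. Libraries with the same number in XGFP+ and XGFP- PGCLCs deviated together (r = 0.253, 0.135, 0.200 and 0.307 over genes), so these numbers were taken to pair them, and other pairs of groups gave r from -0.0105 to 0.160. Promoters are those of RefSeq (GRCm38.p6), and annotation is that of GENCODE. Computation used R 4.3.3 and Python 3.11.15.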

Additional observations from a re-analysis of the deposited data

Results flagged for a closer look

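In 4 of the 36 sets of 4 libraries examined, 1 library stood apart from the other 3 by more than a rule for single outlying values allows, where chance flags about 1 in 20. In each case it was the only library above 0. Hoxc12 was at 0.987 normalized counts in 1 EpiLC library, 1.81 in 1 XGFP+ PGCLC library and 0.867 in 1 XGFP- PGCLC library, and Hoxd13 was at 2.03 in 1 XGFP- PGCLC library. These are 1 or 2 reads each.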

How the results depend on the processing

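Of 825 values for single Hox genes under the alternatives, 791 kept their direction and side of the threshold, 19 gained a call, 12 lost one and 3 changed sign. Those 3 were differences that were not called: Hoxd13 between EpiLC and ESC (log2 difference 0.014 without EpiLC replicate 1, over a range from -0.21 to 0.014 with each library left out) and Hoxc4 between XGFP- PGCLC and EpiLC (-0.11 without XGFP- PGCLC replicate 2 and -0.01 without replicate 4, over a range from -0.11 to 0.67). A filter at a mean above 50 left no member and gave no value. From EpiLC to XGFP+ PGCLC, 2 members in place of 1 were called with a pseudocount of 10, by edgeR, by DESeq2, and with the 2 groups alone with or without the replicate block. Between the PGCLC groups, 1 in place of 2 was called with a pseudocount of 10 and after quantile normalization, 0 with the 2 groups alone, and 2 with the replicate block in these. The replicate block in the fit of all 16 libraries added 1 member from ESC to XGFP+ PGCLC (6 in place of 5) and changed no other call. Fits of 2 groups with the block, and sums without the richest cell, were chosen after seeing the data. Leaving out 1 library gave 3 to 4 called members from ESC to EpiLC, 1 to 2 from EpiLC to XGFP+ PGCLC, 2 to 4 from EpiLC to XGFP- PGCLC, 1 to 2 between the PGCLC groups, 5 to 6 from ESC to XGFP+ PGCLC and 6 from ESC to XGFP- PGCLC. The posterior share then ranged from 76.2 to 79.7% in ESCs, 76.9 to 81.001% in EpiLCs, 65.2 to 76.4% in XGFP+ PGCLCs and 47.4 to 59.2% in XGFP- PGCLCs. Counting group 4 as anterior is not reported for bulk.

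In single cells the summed level moved as follows. In XGFP+ constitutive it was 92.1 CPM without the richest cell. In XGFPhigh it was 108.2 in lane 2 and 91.6 without that cell. In XGFPintermediate it was 69.7 with Dazl above 1, 114.5 in lane 2, 74.9 in lane 3 and 77.4 without that cell. In XGFPlow it was 128.4 with Dazl above 1, 169.7 in lane 2, 266 in lane 3, 296 as a mean over cells, 280.4 thinned and 223 without that cell. The anterior share was 66.8% with Dazl above 1 in XGFP+ constitutive. It was 66.3% in lane 2, 58.9% in lane 3 and 66.3% without the richest cell in XGFPhigh. It was 70.02% with Dazl above 1, 41.1% in lane 2, 58.9% in lane 3 and 58.3% without that cell in XGFPintermediate. In XGFPlow it was 49.3% with Dazl above 1, 28.8% in lane 2, 23.8% as a mean over cells, 25.8% thinned and 29.5% without that cell. The cause of these changes was not tested. At these depths a member near 1 read per library cannot be told from 0.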
